A study of Homo sapiens with 4 samples.

Results

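The genes described here encode 10 serine/arginine-rich (SR) splicing factors or close relatives of them: SRSF1, SRSF2, SRSF3, SRSF4, SRSF5, SRSF6, SRSF7, SRSF10, SRSF11 and TRA2B. The peaks counted for them were all those listed under the NCBI Gene ID of 1 of these genes, with each position counted once. That gave 12 of the 9107 HNRNPC peaks and 70 of the 63507 PABPC4 peaks. The whole series held peaks under 13328 gene IDs. Each member peak was listed under a single gene ID.

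The RNA contacts of HNRNPC, a nuclear protein that binds U-rich RNA, and of PABPC4, a poly(A)-binding protein, were mapped by cross-linking and immunoprecipitation (CLIP). Both were mapped in MDA-MB-231, an established human breast cancer cell line, after 400 mJ/cm2 of ultraviolet light at 254 nm. PABPC4 was mapped by PAPERCLIP, in which reverse transcription is primed on poly(A), a step meant to mark mRNA 3′ ends. HNRNPC and PABPC4 had 2 samples each, and the samples of a protein were pooled into 1 list before peaks were called. There was therefore no spread between replicates, no condition to compare and no test for any value below. No knockdown, treatment or second cell line was part of these 4 samples. In bulk cells, a peak height depends on how much of the transcript is present as well as on how it is bound or processed and these cannot be told apart here. Each of VIM, CD44, EGFR, AXL and CAV1, genes typical of this mesenchymal-like line, had peaks of both proteins, and 3 of these 5 had 2 or more 3′ ends in use as defined below. Of 6 genes typical of other lineages, PGR, PTPRC and ALB had 0 peaks, while ESR1, CDH1 and GATA3 had PABPC4 peaks of up to 7, 56 and 108 tags and no HNRNPC peak.

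SR proteins join an RNA-binding domain to a tail rich in arginine and serine, and they help the spliceosome to choose exons. Many of them limit their own supply. When the protein is abundant, an extra exon with a premature stop codon, called a poison exon, or an intron of the 3′ UTR is spliced differently, and the mRNA is degraded by nonsense-mediated decay. Several of these genes also end their mRNAs at more than 1 poly(A) site, so that the length of the 3′ UTR can vary. HNRNPC is known for binding runs of U, among them those of Alu repeats that lie antisense within introns, where it keeps the splicing factor U2AF2 from cryptic splice sites. The study asked whether HNRNPC, together with PABPC4, governs which poly(A) site is used, so the ends of these genes and the HNRNPC peaks near them were the point of interest.

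The first sequences are runs of U in or just before 3 HNRNPC peaks, shown because such runs are the element that HNRNPC is known to bind. Each is 30 nt of hg38 around the longest run in the peak or the 50 nt before it, 5′ to 3′ on the gene's strand, with T for U and the run in capitals. They come from SRSF3 at chr6:36597094-36597123 and chr6:36597830-36597859, both on the plus strand, and from the 3′ UTR of SRSF1 at chr17:58003006-58003035 on the minus strand.
SRSF3 intron 2, edge of the first peak: gatcTTTTTTTTTTTTTTTTTTTTTggtgg
SRSF3 intron 2, before the second peak: gctataatttcTTTTTTTaaaaaaatgtat
SRSF1 3′ UTR, edge of the peak: gtattagaactgTTTTTTgtttttgagaca

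The next sequences are the last 30 nt of PABPC4 peaks in 3′ UTRs, shown because they hold the hexamer that directs cleavage and polyadenylation, AATAAA or ATTAAA in the DNA (AAUAAA or AUUAAA in the RNA), in capitals. All are read from hg38 on the gene's strand. SRSF6 on the plus strand shows 4 ends, at chr20:43461526-43461555, chr20:43461661-43461690, chr20:43461749-43461778 and chr20:43463572-43463601. SRSF1 on the minus strand shows 2, at chr17:58003494-58003523 and chr17:58003367-58003396. TRA2B on the minus strand shows its tallest peak, at chr3:185916748-185916777, and the annotated end at chr3:185917330-185917359. SRSF3 on the plus strand shows its tallest peak, at chr6:36602261-36602290, which was not counted as an end below because an A-rich stretch follows it.
SRSF6 end 1: agatttaAATAAAagtttgctaccaagatg
SRSF6 end 2: accagcAATAAAttactcagtttggataac
SRSF6 end 3: gagtaaaAATAAAaggtattttttagtcaa
SRSF6 end 4: ctttaaatctcAATAAAatacttactgagg
SRSF1 end 1: tttgaaaaAATAAAcattttttaaaaaact
SRSF1 end 2: ttaatgtgttagcaaATTAAAagttcttaa
TRA2B tallest: actgtgtttaAATAAAcgcaaatgaaaaga
TRA2B annotated: gcaaaaagcaacAATAAAcagtttgatttt
SRSF3 tallest: cacagactgatAATAAAcctctaaacctgc

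PABPC4 peaks were found in all 10 genes, and HNRNPC peaks in 6. Over all 20056 protein-coding genes, 59.2% had a PABPC4 peak and 19.0% an HNRNPC peak. Among the 11865 genes with a PABPC4 peak, 31.4% also had an HNRNPC peak. The number of PABPC4 peaks ran from 2 in SRSF2 and SRSF5 to 16 in SRSF4, with a median of 7.5 per gene, beside a median of 3 over all protein-coding genes with such a peak. The tallest PABPC4 peak of a gene was between 135 tags (SRSF7) and 400 tags (SRSF10), with a median of 229.5 tags, beside 82 over all genes with a peak. The median RefSeq length of these genes was 13610 nt (range 3297 to 47357 nt), beside 36860 nt for genes with a PABPC4 peak and 63671 nt for genes with an HNRNPC peak. The HNRNPC peaks numbered 4 in SRSF1, 3 in SRSF3, 2 in SRSF4 and 1 each in SRSF5, SRSF10 and SRSF11. SRSF2, SRSF6, SRSF7 and TRA2B had 0.

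**Figure D1:**
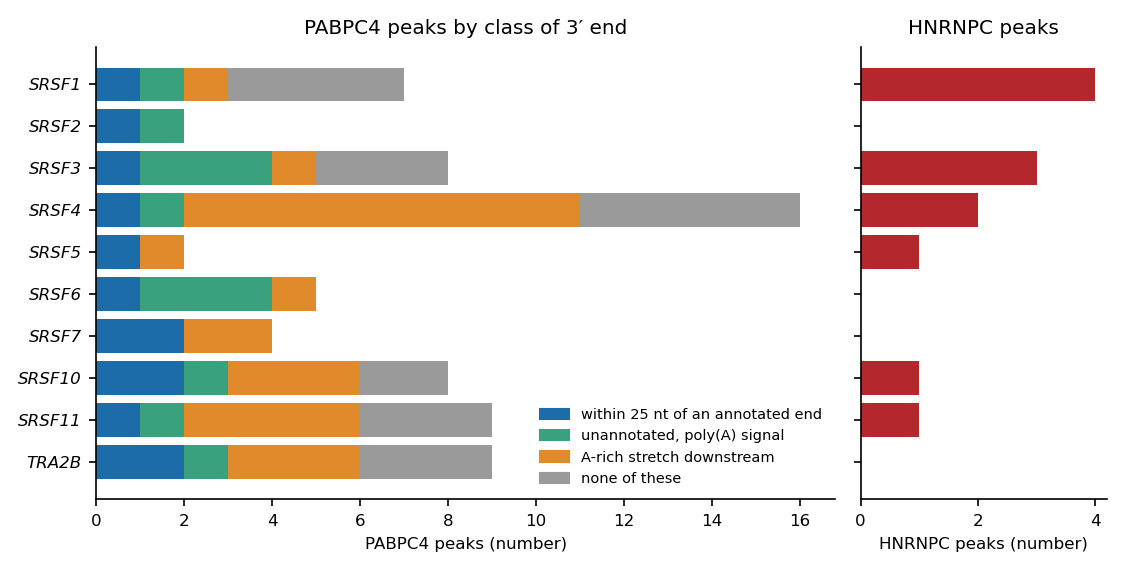
Number of PABPC4 peaks (left, coloured by the class of their 3′ end) and HNRNPC peaks (right) in each of the 10 genes; each bar counts peaks of 1 pooled list and has no error. SRSF4 holds the most PABPC4 peaks, 16, of which 9 lie before an A-rich stretch, and SRSF1 the most HNRNPC peaks, 4.

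Because PAPERCLIP can also start on runs of A inside a transcript, each PABPC4 peak was placed in 1 of 4 classes. The first was an annotated end, with the 3′ edge of the peak within 25 nt of the end of a protein-coding or decay-targeted transcript. Of the rest, peaks were called A-rich if the 50 nt downstream held an unbroken run of 6 A, or 7 A among 10 nt. Those 50 nt were read on the genome, introns included. Remaining peaks with a poly(A) signal (AAUAAA or AUUAAA) in their last 40 nt were called unannotated ends, and all others had none of these features. In the 10 genes, 13 peaks were at annotated ends, 12 were unannotated ends with a signal, 25 were before A-rich stretches and 20 had none of these. When ends of any transcript type, such as retained-intron transcripts, were allowed, 20 were at annotated ends and 8 were unannotated ends with a signal, so "unannotated" below refers to protein-coding and decay-targeted transcripts only. Over the whole list, 13.7% were at annotated ends, 5.03% were unannotated with a signal, 55.7% were A-rich and 25.6% had none of these. Peaks of these genes were more often in 3′ UTRs than the list as a whole, 34 of 70 or 48.6% (95% Wilson interval 37.2 to 60.0%) beside 29.7%. Sequence that is intronic in every annotated transcript held 28.6% of them (19.3 to 40.1%) beside 60.2%, and coding sequence held 10.0% (4.93 to 19.2%) beside 5.09%. An A-rich stretch, in whatever class, followed 38.6% (28.0 to 50.3%) beside 58.5%, and 24.3% (15.8 to 35.5%) beside 35.5% lay in sense Alu-related sequence. Within 3′ UTRs, 22 of 34 peaks held a poly(A) signal, or 64.7% (47.9 to 78.5%) beside 48.6%. Counted by the main transcript alone, 27 of the 70 lay in introns, 14 of them in 1 intron of SRSF4. The 10 genes are shorter than genes with a PABPC4 peak (median 13610 nt beside 36860 nt). The part of gene length in these shares was not tested. These intervals cover counting error only, and peaks of a gene are not independent of each other.

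**Figure D2:**
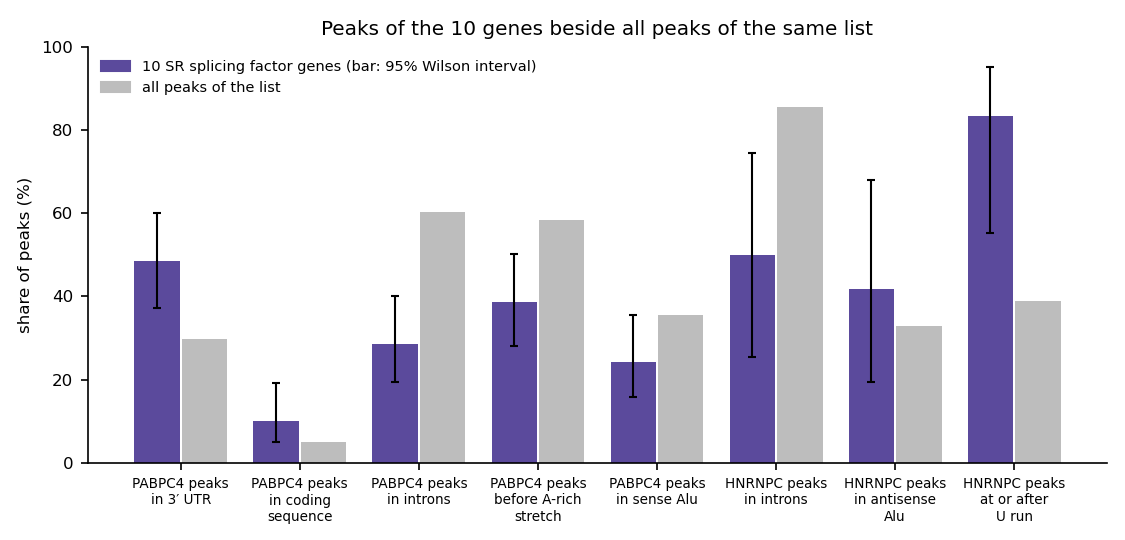
Share of peaks (%) with the named feature, for the 70 PABPC4 and 12 HNRNPC peaks of the 10 genes (purple, with 95% Wilson intervals for counting error) and for all peaks of the same list (grey). The 3′ UTR share of PABPC4 peaks is 48.6% beside 29.7%, and the share in sequence intronic in every transcript 28.6% beside 60.2%.

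The main subject was where the mRNAs of these genes end. A 3′ UTR end was counted as in use when it had a PABPC4 peak at an annotated end or an unannotated end with a signal, and ends at most 50 nt apart were merged. By this count, 24 ends were in use, 13 annotated and 11 unannotated. AAUAAA was in 16 of their peaks, AUUAAA in 5, and 3 had neither. Where present, the signal began between 35 and 14 nt before the last base of the peak, with a median of 20 nt. SR splicing factor genes with 2 or more 3′ UTR ends in use numbered 8 of 10, beside 17.2% of the 11865 genes with a PABPC4 peak. The exceptions were SRSF4 and SRSF5, with 1 end each. These genes also had taller and more numerous PABPC4 peaks than the median gene, and the part of that difference in the count of ends was not tested. The ends in use took 3186 of the 7179 tags of peak height summed over the 10 genes, or 44.4%, beside 32.8% over the list.

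SRSF6 and SRSF3, both classical SR proteins that activate exons, had the most ends, 4 each. In SRSF6 (chr20:43457893-43466046, plus strand) the ends lay 492, 627, 715 and 2538 nt past the stop codon, with heights of 104, 56, 205 and 215 tags. All had AAUAAA, but only the last, 4 nt before an annotated end, was annotated. Of the 580 tags at these ends, the third took 35.3% (exact 95% interval 31.5 to 39.4%) and the last 37.1% (33.1 to 41.1%), so the intervals overlapped. The first took 17.9% and the second 9.66%. Thus 3 of the 4 ends fell within a short stretch near the stop codon, and their summed height exceeded that of the distal end.

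In SRSF3 (chr6:36594353-36605600, plus strand) all 8 PABPC4 peaks were in the 3′ UTR, and the ends in use lay 195, 799, 929 and 1442 nt past the stop codon, with heights of 32, 157, 23 and 167 tags. The first was an annotated end without a signal and the other 3 were unannotated ends with one, of which the end at 799 nt lay 10 nt past the end of a transcript of another type. The second and the fourth took 41.4% (36.4 to 46.6%) and 44.1% (39.0 to 49.2%) of the 379 tags at these ends, again with overlapping intervals. The tallest peak of the gene was not among them. At chr6:36602189-36602290, 301 nt past the stop codon, it was 234 tags high and held AAUAAA 19 nt before its end, but an A-rich stretch within 50 nt downstream put it in that class. A window of 20 nt instead of 50 nt would count it as an end in use and change the number of ends and the shares above. Another peak of 148 tags ended 93 nt before the end of the main transcript, in sense Alu-related sequence with a run of A inside the peak itself. It had no signal and also stayed out of the count. SRSF3 therefore had peaks of over 100 tags at 4 places along a 3′ UTR of 3611 nt, 2 of them in use by the rule.

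SRSF1, the SR protein best known as a regulator of alternative splicing with oncogenic activity, had 2 ends in use in its 3′ UTR of 4487 nt (chr17:58000919-58007346, minus strand). Its tallest peak, 306 tags at chr17:58003494-58003645, ended 1912 nt past the stop codon behind an AAUAAA, 1 nt before the end of a transcript of another type. The annotated end at 2039 nt had a peak of 59 tags with AUUAAA. The unannotated end thus took 83.8% (79.7 to 87.5%) of the 365 tags at both. Its peak held a run of A just before its own 3′ edge, as long as the A-rich rule asks for. That rule looked only downstream of the peak, so the peak was still counted as an end. The part of priming on this run in the height of the peak was not tested. Near the distal end of the 3′ UTR, peaks of 92 and 43 tags lay 4344 and 4439 nt past the stop codon. The first was before an A-rich stretch, and the other ended 48 nt short of an annotated end. A limit of 50 nt instead of 25 nt would count that last one as annotated.

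SRSF2, which in its own mRNA is known to control an intron of the 3′ UTR, is the shortest gene of the group (chr17:76734115-76737333, minus strand). It had 2 PABPC4 peaks and both were ends in use. Measured along the spliced mRNA, the unannotated end with AUUAAA lay 326 nt past the stop codon and had 136 tags. The annotated end lay at 1047 nt and had 217 tags, or 61.5% (56.2 to 66.6%) of the total. Both ends lay beyond the 3′ UTR intron, in the last exon.

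SRSF7, which is related to SRSF3 and binds RNA through an added zinc knuckle, had 2 annotated ends, both with AAUAAA (chr2:38743599-38751494, minus strand). The proximal end, 237 nt past the stop codon, had 135 tags and took 85.4% (79.0 to 90.5%) of the total. The distal end, at 1524 nt, had 23 tags and an A-rich stretch after it. Of the ends in use, the proximal one was also the taller in SRSF1 and SRSF11. In SRSF10 the end nearest the stop codon was the tallest too, though its interval overlapped that of the last end.

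SRSF10, a protein that represses splicing when it is dephosphorylated, had the longest 3′ UTR of the group, 6795 nt, and 3 ends in use (chr1:23964347-23980927, minus strand). The annotated ends at 2058 and 4693 nt past the stop codon had 197 and 175 tags, or 47.2% (42.4 to 52.2%) and 42.0% (37.2 to 46.9%). An unannotated end at 3679 nt had 45 tags. Each had AAUAAA. The intervals of the first and last overlapped.

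SRSF11, an SR-like protein (chr1:70205682-70253052, plus strand), had low ends. The annotated end 804 nt past the stop codon had 61 tags, no signal and an A-rich stretch after it, and the unannotated end at 1191 nt, 1 nt before the end of a transcript of another type, had 34 tags and AAUAAA. Its 3 tallest peaks were in coding exons, with 240 tags in exon 6, 268 tags in exon 8 and 336 tags in exon 12, at chr1:70250617-70250656. A coding peak in exon 11 had 56 tags. The peaks in exons 8 and 12 lay before A-rich stretches of the genome, and the other 2 had neither that nor a signal. After the exon 8 peak the next exon of the main transcript was 2003 nt away, so its A-rich stretch may lie in the intron. Whether it is part of the spliced mRNA was not tested. The peak in exon 6 ended 4 nt past the end of a transcript of another type.

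TRA2B, a sequence-specific activator of exons that contain GAA repeats, showed the opposite order to SRSF7 (chr3:185914558-185938103, minus strand). Its 3 ends lay 385, 580 and 967 nt past the stop codon with 90, 23 and 356 tags. The last of these, at chr3:185916748-185916801, was unannotated, 1 nt past the end of a transcript of another type, had AAUAAA and took 75.9% (71.8 to 79.7%) of the 469 tags. The 2 nearer ends were annotated. The 3′ UTR of the main transcript runs to 3157 nt, and no PABPC4 peak of the gene was listed beyond 967 nt.

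SRSF4 and SRSF5 each had 1 end in use, at the end of a short 3′ UTR. SRSF4 (chr1:29147743-29181900, minus strand) had a peak of 225 tags 669 nt past the stop codon, and SRSF5 (chr14:69726900-69772005, plus strand) a peak of 145 tags at 544 nt. Both were annotated and had AAUAAA. Coding exons of SRSF4, SRSF5 and SRSF6 held 1 further peak each, of 38, 29 and 26 tags, all before A-rich stretches.

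**Figure D3:**
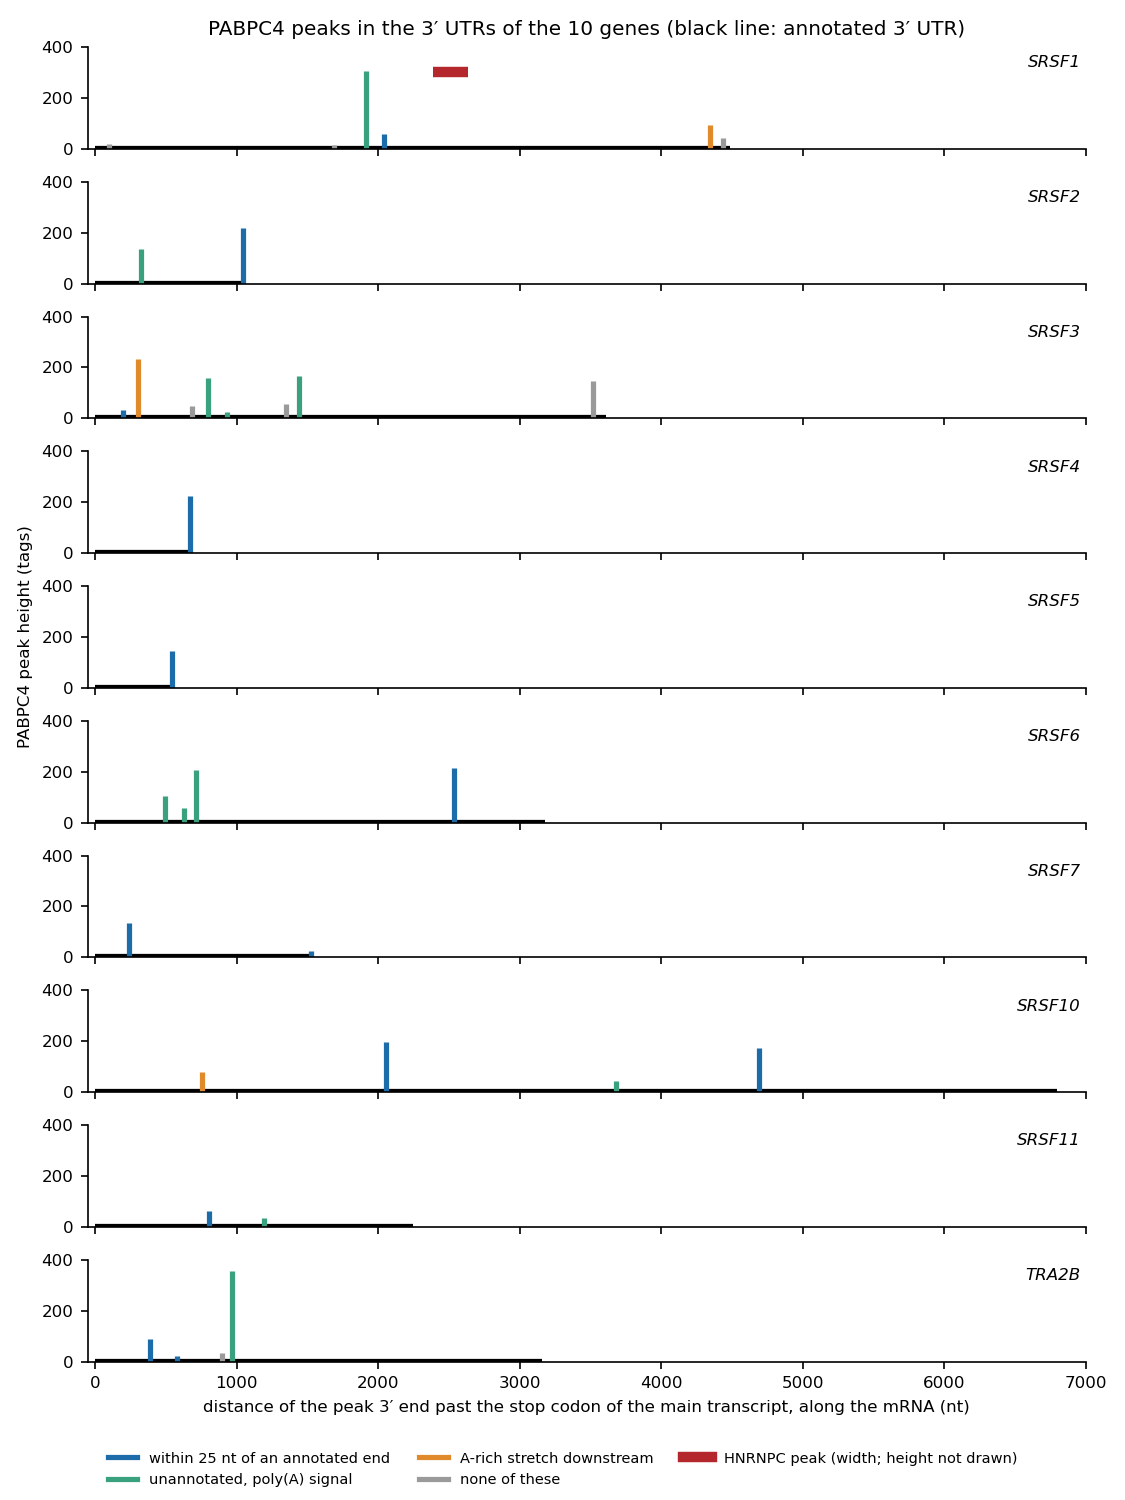
Height (tags, vertical axis) of each PABPC4 peak in the 3′ UTR, placed by the distance of its 3′ end past the stop codon along the spliced main transcript (nt), with 1 row per gene; the black line is the annotated 3′ UTR and the red bar the HNRNPC peak of SRSF1. SRSF6 and SRSF3 show several ends, while SRSF4 and SRSF5 show 1, and in SRSF1 the HNRNPC peak lies beyond both ends in use.

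**Figure D4:**
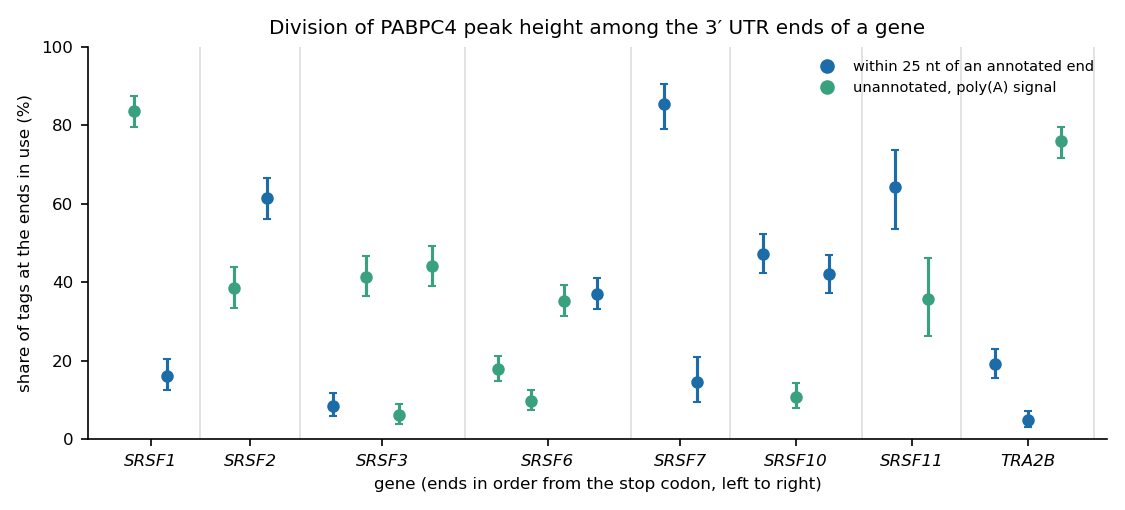
Share (%) of the summed PABPC4 height at the 3′ UTR ends in use that fell to each end, in the 8 genes with more than 1, with exact 95% binomial intervals for counting error. The proximal end in use takes most tags in SRSF1 (83.8%) and SRSF7 (85.4%), and the distal end in use in TRA2B (75.9%). In SRSF1, peaks of 92 and 43 tags farther along the 3′ UTR were not counted as ends.

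Of the 12 HNRNPC peaks, 1 lay in the 3′ UTR of a main transcript and 1 more, in SRSF5, in that of other transcripts, or 16.7% (95% Wilson interval 4.70 to 44.8%) beside 4.96% of the list. The first was in SRSF1, at chr17:58002768-58003017, 16 tags high and 250 nt wide, and began 2389 nt past the stop codon. It thus began 477 nt after the end of the tallest PABPC4 peak of the gene and 350 nt after the annotated end. UUUUU was present within it and in the 50 nt before it. It was the only 1 of the 12 HNRNPC peaks within 500 nt of the end of a PABPC4 peak of the same gene, and 0 of the 12 overlapped one. SRSF1 had 3 more HNRNPC peaks, of 15, 16 and 13 tags, which began 7580, 4931 and 2866 nt downstream of its main transcript. They were at chr17:57993258-57993339, chr17:57995866-57995988 and chr17:57997910-57998053. GENCODE places these in a readthrough gene model that spans SRSF1, so whether they mark SRSF1 transcripts is uncertain. A PABPC4 peak of 35 tags listed under SRSF1, at chr17:57989117-57989164, began 11755 nt downstream of its main transcript and is uncertain in the same way. Counting only peaks inside the GENCODE spans, the 10 genes had 9 HNRNPC peaks and 69 PABPC4 peaks.

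In SRSF5, another classical SR protein, the single HNRNPC peak was 6 tags high, at chr14:69769490-69769640, in intron 5 of the main transcript. Other SRSF5 transcripts end there, and the peak ended 4 nt before an annotated transcript end. No PABPC4 peak was listed there, and the nearest was 1425 nt downstream. The authors' p-value of 4.62e-03 was the highest among the 12. In SRSF10 the HNRNPC peak was 11 tags high, at chr1:23976721-23976810 in intron 2, and in SRSF11 it was 27 tags high, the tallest of the 12, at chr1:70207058-70207173. The latter lay 14207 nt upstream of the main transcript's first exon, in an intron of longer SRSF11 transcripts, and was antisense to an Alu-related sequence. SRSF4 had 2 peaks of 11 tags in its intron 1. Of these, chr1:29181255-29181374 lay 272 nt after exon 1 and had no run of more than 4 U. The other, chr1:29161516-29161589, lay 999 nt before exon 2, held a run of 6 U and had GUGUCA near its end, a hexamer found in the last 20 nt of 23.3% of all HNRNPC peaks and of 1 of these 12. The part of that hexamer in the peak was not tested.

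Runs of U were frequent at these peaks. UUUUU was in the peak or the 50 nt before it in 10 of 12, or 83.3% (95% Wilson interval 55.2 to 95.3%), beside 38.8% of the list. Within the peak alone it was in 6 of 12, beside 13.3%. The 12 peaks were also wider, with a median of 125 nt beside 101 nt, so a longer stretch was searched. The part of width in these shares was not tested. Introns of the main transcripts held 7 of the 12 peaks. Sequence intronic in every annotated transcript, the readthrough model included, held 6 of 12 (95% Wilson interval of the share 25.4 to 74.6%) beside 85.5% of the list. Sequence antisense to Alu was found at 5 of the 12, or 41.7% (19.3 to 68.0%), beside 32.8%. The median height was 14.5 tags beside 11 tags. With 12 peaks in 6 genes, these shares are a description of a few sites.

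Poison exons were taken as internal exons of transcripts annotated for nonsense-mediated decay that overlap no exon of the main transcript. By this rule 8 of the 10 genes had at least 1, beside 20.4% of 19163 protein-coding genes and 26.6% of the 11773 with a PABPC4 peak. They had 17 exon models in all, of which 11 held a premature stop codon, in 6 genes. SRSF1 and SRSF5 had none by this rule, and the exons of SRSF2 and SRSF10 had no stop codon of their own. That of SRSF2 lies in intron 2, the intron of its 3′ UTR, after the stop codon of the main transcript. The introns that hold such exons contained 6 of the 12 HNRNPC peaks and 20 of the 70 PABPC4 peaks, 14 of the latter in 1 intron of SRSF4. Over the lists, 10.1% of HNRNPC and 6.41% of PABPC4 peaks lay in introns that hold such an exon. Centred within the exons themselves were 1 HNRNPC peak, in SRSF3, and 3 PABPC4 peaks, in TRA2B and SRSF10. For peaks centred in such an exon the set was 4017 protein-coding genes, larger than the 3901 behind the 20.4% above. Of the 4017 genes with a poison exon by the rule, 0.672% had an HNRNPC peak centred in one and 1.32% a PABPC4 peak. Among the 3128 of these with a PABPC4 peak anywhere, the shares were 0.799% and 1.47%.

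The rule above did not require a stop codon in the exon. The stop codons of 3 of the 11 exon models that held one are shown, because a premature stop targets the mRNA for decay. Each is 30 nt of hg38 on the gene's strand with the premature stop in capitals. That of TRA2B at chr3:185931760-185931789 lies under a peak. Those of SRSF6 at chr20:43459287-43459316 and SRSF7 at chr2:38749307-38749336 lie in exons with no peak of either protein.
TRA2B poison exon: aagctcaggaataagTGAagctgaaatttg
SRSF6 poison exon: gcagccttttgccatTAGacgcagggtgat
SRSF7 poison exon: ttgagtcagtcgcctTGAttcagaatgtca

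In SRSF3, all 3 HNRNPC peaks fell in intron 2, which holds a poison exon of 98 nt at chr6:36598429-36598526. They were 22, 14 and 20 tags high, at chr6:36597106-36597232, chr6:36597874-36598028 and chr6:36598394-36598535. The last of them covered all 98 nt of the exon, with its premature UGA 80 nt into it. All 3 were antisense to Alu-related sequence. The first followed an unbroken run of 21 U, counting the 8 before the peak and the 13 within it, and lay 138 nt downstream of exon 2. No PABPC4 peak was listed in this intron.

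A second decay-targeted exon of SRSF3, of 456 nt in intron 3 at chr6:36599821-36600276, had no peak of either protein. This longer exon, with a UGA 32 nt into it, is the one through which SRSF3 is known to limit its own mRNA.

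The poison exon of TRA2B had PABPC4 peaks and no HNRNPC peak. It is 276 nt long, at chr3:185931577-185931852 in intron 1, with UGA 79 nt into it. Of its PABPC4 peaks, chr3:185931641-185931706 was 162 tags high and chr3:185931760-185931784, which spans the stop codon, was 48 tags high. Another, chr3:185931834-185931881 with 140 tags, overlapped the first 19 nt of the exon but was centred in the intron before it. The first 2 lay before A-rich stretches and the last had neither such a stretch nor a signal. None was at an annotated end. GAA, the motif that TRA2 proteins are known to bind, was counted in every poison exon on the sense strand. The TRA2B exon held 28, or 10.1 per 100 nt. Of the 7527 poison exons of all genes 82.1% held at least 1 GAA, their median was 1.85 per 100 nt and 0.279% had a density as high as in TRA2B. The next highest among the 10 genes was SRSF10, with 14 in 363 nt or 3.86 per 100 nt. The last 30 nt of the 162-tag peak, chr3:185931641-185931670, and the 30 nt after it, chr3:185931611-185931640, are shown on the minus strand with GAA in capitals, since the A-rich stretch after the peak is part of this repeat.
TRA2B peak end: aaaGAAgtcaGAAtttGAAacgGAAGAAtg
TRA2B after the peak: aaGAAaaGAAataaaaatGAAgttaagata

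SRSF10 had the tallest PABPC4 peak of all 70, 400 tags at chr1:23978135-23978216, wholly inside an exon of 363 nt in intron 2 at chr1:23977911-23978273. The exon belongs to a decay-targeted transcript and to another without a defined coding sequence, and holds no annotated stop codon. An A-rich stretch lay directly downstream, at chr1:23978105-23978134 on the minus strand, shown here with 6 A in a row in capitals.
SRSF10 after the peak: aaaagAAAAAAtaaagaaaagctggaagaa
The HNRNPC peak of SRSF10 lay in the same intron, beginning 1325 nt after the end of this PABPC4 peak. The 400-tag peak was taller than both annotated ends of the gene, at 197 and 175 tags, and ended 20 nt past the end of a transcript of another type. Whether it marks transcripts that end there or priming on internal A was not tested.

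SRSF4 held 14 PABPC4 peaks in its intron 1, more than any other intron of these genes. This intron of 21128 nt contains a chain of 3 decay-targeted exons, 1 of which has a UGA. No peak touched them. The 14 peaks were between 26 and 219 tags high, with a median of 55.0 tags. Of these, 8 lay before A-rich stretches, 1 was an unannotated end with a signal and 5 had neither, and 11 were in sense Alu-related sequence. The tallest, chr1:29174691-29174754, was followed at once by 15 A at chr1:29174661-29174690, given on the minus strand with that run in capitals. The part of such runs in the peaks of this intron was not tested.
SRSF4 after the peak: AAAAAAAAAAAAAAAcctatctcctgcaca

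Around the other poison exons there was little signal. SRSF7 had a PABPC4 peak of 40 tags at chr2:38748812-38748840, in intron 3 of the main transcript, before a run of A. It lay downstream of the poison exon of 449 nt. The same position is in exons of decay-targeted and retained-intron transcripts that the poison-exon rule did not count. In SRSF11, intron 2 has 3 such exons with stop codons and 1 PABPC4 peak of 28 tags outside them. SRSF2 and SRSF6 had no peak in the introns that hold theirs.

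**Figure D5:**
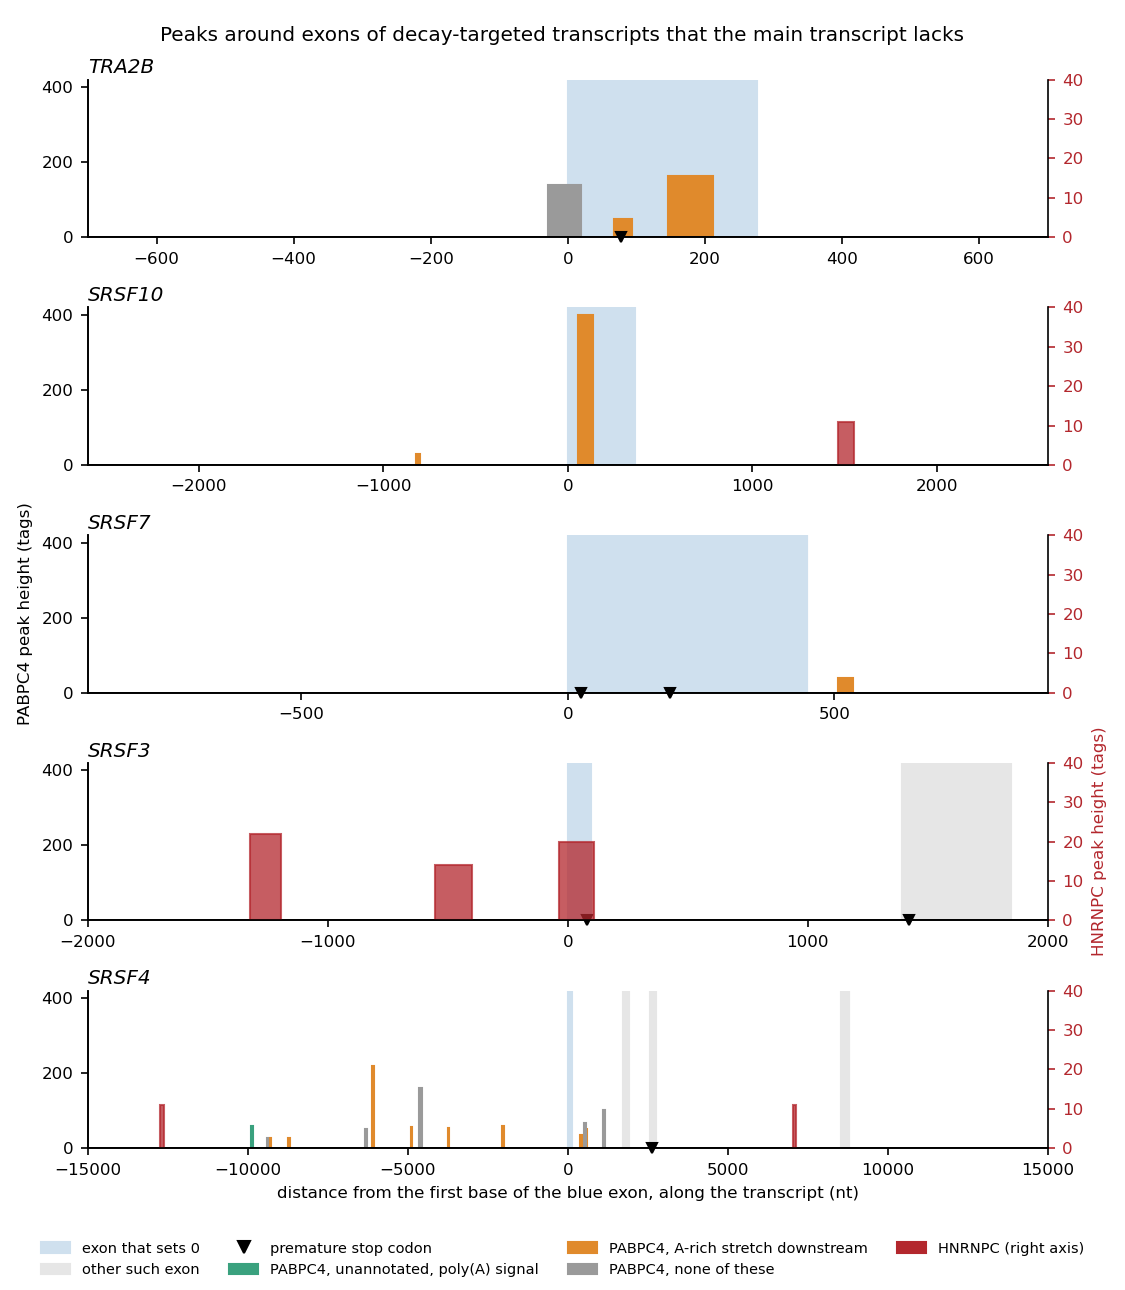
Peaks in the introns around decay-targeted exons of 5 genes, by distance from the first base of the blue exon along the transcript (nt); bars are as wide as the peak, PABPC4 heights (tags) use the left axis and HNRNPC heights (tags, red) the right. PABPC4 peaks of 162 and 48 tags sit inside the TRA2B exon and 1 of 400 tags inside the SRSF10 exon, while in SRSF3 an HNRNPC peak of 20 tags covers the exon.

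The other genes of the pathway were counted in the same way. Of 4 further SR or SR-like genes, SRSF8, SRSF9, SRSF12 and TRA2A, 3 had a PABPC4 peak, 0 had 2 or more ends in use and 1 had an HNRNPC peak. That gene, the TRA2B paralogue TRA2A, also had a PABPC4 peak centred in a poison exon. Among the 6 kinases that phosphorylate SR proteins (CLK1 to CLK4, SRPK1 and SRPK2), 5 had a PABPC4 peak, 3 had an HNRNPC peak and 3 had 2 or more ends. TNPO3, which imports SR proteins into the nucleus, had 12 PABPC4 peaks, 2 ends in use and 0 HNRNPC peaks. Of 10 partners with arginine- and serine-rich domains (SRRM1, SRRM2, SON, PNN, ACIN1, RBM39, RBMX, SNRNP70, U2AF2 and LUC7L3), 7 had an HNRNPC peak and 6 had 2 or more ends, with 2 to 14 PABPC4 peaks per gene. U2AF1 was left out after its values were seen, because its gene ID carried 333 PABPC4 peaks spread over 33.9 Mb of chromosome 21, of which 1 was centred in the gene. Within this group RBM39 had a PABPC4 and an HNRNPC peak centred in poison exons, and ACIN1 an HNRNPC peak. With U2AF1, 8 of 11 had an HNRNPC peak and 7 of 11 had 2 or more ends. As a like group, 10 hnRNP genes had 26 HNRNPC peaks in 8 genes and 77 PABPC4 peaks, and 7 of the 10 had 2 or more ends in use.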

How the data were processed

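HNRNPC and PABPC4 CLIP libraries came from MDA-MB-231 cells, 2 samples per protein and 4 in all. The authors deposited 1 peak list per protein, made from the pooled samples. The deposited signal is the peak height, the number of unique tags at the summit, not scaled to depth. Per the labels and the study's methods, the authors processed HNRNPC reads with UMI-tools, cutadapt and BWA 0.7.17 on hg38, with peak calling by the CLIP Tool Kit. For PABPC4 these steps are not given in the sources used here. The heights sum to 147196 (HNRNPC) and 4019739 (PABPC4) tags over 9107 and 63507 peaks, which is not the depth. The depth is unknown.

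Peaks were assigned by the listed gene ID and compared with GENCODE 44 and hg38 (Python 3.11.15, pysam 0.24.0, SciPy 1.17.1, matplotlib 3.10.9). Annotated ends were those of protein-coding and decay-targeted transcripts with complete 3′ ends. Alu-related sequence was found by BLAST 2.17.0 of each peak with 100 nt on either side against RN7SL1 (299 nt), at an E value of at most 1e-05. Classes were checked on simulated data. With 1 pooled list per protein no test between groups was possible, and intervals (Wilson for features, exact for shares of tags) cover counting error only.

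All 10 genes were named. Every HNRNPC peak and every PABPC4 peak inside a poison exon was given with its coordinates and height. Each gene's tallest PABPC4 peak and the tallest at each annotated end were given with their height. Their place was given as coordinates or as the distance past the stop codon, and other peaks by count and range. The members and lists were chosen with earlier results of these data known. The end definition above, the Alu search, the GAA count, the backgrounds for poison exons beyond the first and the check of U2AF1 were chosen after seeing the data. Alternatives were a stricter p-value, taller peaks, every listed entry, the GENCODE span, wider or narrower windows, signal variants and other definitions of ends and poison exons.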

Additional observations from a re-analysis of the deposited data

How the results depend on the processing

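The counts were recomputed under the alternatives, 56 recalculations in all, and 52 stayed within 1.5 times the reported count. The other 4 moved further. PABPC4 peaks at annotated ends rose from 13 to 20 when ends of any transcript type were allowed, an alternative chosen after seeing the data, and unannotated ends with a signal then numbered 8 instead of 12. PABPC4 peaks before A-rich stretches numbered 16 instead of 25 once peaks lower than the list's median height were dropped. Counted in the poison exon only, instead of the whole region around it, PABPC4 peaks numbered 3 instead of 20 and HNRNPC peaks 1 instead of 6. Genes with 2 or more ends in use numbered 6 without those lower peaks and 8 under the other alternatives run for that count. No paired analysis was possible because both libraries of a protein share a single pooled list, and for the same reason no sample could be left out. The unknown depth limits what absence of a peak means: HNRNPC peaks in these genes were 6 to 27 tags high, so sites with fewer tags may not be listed.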

Other observations

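The HNRNPC list also placed 119 peaks under the gene ID of U2AF1 across much of chromosome 21, with 0 centred in the GENCODE gene. No other gene of the lists counted here had more than 38 PABPC4 or 22 HNRNPC peaks.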
